A study of Mus musculus with 18 samples.

Results

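Eomes was deleted in natural killer (NK) cells with an inducible Cre, and the RNA of splenic NK cells was sequenced at 3 maturation stages. The comparison described here is that of stage II, the least mature of the sorted stages, and it uses the 3 KO and the 3 WT libraries that the labels assign to stage II, which are 6 of the 18 libraries of the series. KO cells came from mice with the alleles Eomesfl/fl, Rosa26YFPLSL and Ncr1-iCreERT2 (KI/WT), given tamoxifen over 3 days. The Cre sits in 1 copy of Ncr1 and so acts in cells that express this NK receptor gene, the YFP reporter is switched on by Cre, and both Eomes alleles are floxed. WT cells are labelled WT on the same C57BL/6 strain. The labels do not say whether the WT mice carried the Cre allele or received tamoxifen, so the deletion cannot be told apart from either. All mice were 8 to 12 weeks old, and the spleens of a preparation were pooled. The sorted phenotypes were CD27+CD11b- for stage II, CD27+CD11b+ for stage III and CD27-CD11b+ for stage IV. The labels tell neither how many mice made a pool, nor which replicate number came from which of the 3 experiments, nor whether cells were sorted on YFP.

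Eomes and its relative T-bet, encoded by Tbx21, are T-box transcription factors that bind a shared DNA sequence and together shape NK cells. In mice, T-bet is needed for type 1 innate lymphoid cells (ILC1), the tissue-resident relatives of NK cells. Eomes marks conventional NK cells and is low or absent in ILC1. Maturation of mouse NK cells in the spleen runs from cells with CD27 alone to cells with CD11b alone. Along it NK cells lose proliferative capacity, gain Ly49 and KLRG1 receptors, and leave for the circulation through S1P receptor 5.

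The 6 libraries held between 21942834 and 26092733 counts in KO and between 19409764 and 21789075 counts in WT, and values per library are given as CPM, the gene's count divided by the library's total and scaled to 1000000. The WT libraries were not alike. Xist, a transcript of the inactive X chromosome of females, was at 35.9, 14.9 and 36.1 CPM in KO replicates 1, 2 and 3, against 45.2, 0.291 and 0 CPM in WT replicates 1, 2 and 3. Ncr1, the gene that carries the Cre insertion, was at 2350, 2130 and 2290 CPM in KO, against 2380, 3800 and 3640 CPM in WT. WT replicate 1 was thus close to the KO libraries in both transcripts and WT replicates 2 and 3 were not, and the same split of the WT replicates was seen in stages III and IV. The Y-linked Ddx3y was present in all 6 libraries, at 108, 206 and 138 CPM in KO replicates 1, 2 and 3 and 95.1, 195 and 214 CPM in WT. By Xist and Ddx3y, the KO pools and WT replicate 1 held RNA of both sexes. WT replicates 2 and 3 held male RNA with next to no female RNA. Sex thus went partly with genotype, and its part in the calls was not tested beyond the refits below. WT replicate 1 also had counts for 29859 genes, of which 10135 had 1 to 5 counts, whereas the other 5 libraries had counts for 17899 to 20836 genes. Each result below was therefore refitted without WT replicate 1, and with a term for the libraries with under 1 CPM of Xist (the Xist term). Another refit kept WT replicate 1 as the only WT library of stage II. Of the 207 genes called in stage II, 114 remained called with the Xist term and 33 against WT replicate 1 alone. Calls lost with the Xist term are given beside the genes, whereas those lost against WT replicate 1 alone are given as counts. In stages III and IV, 14824 and 16536 genes were detected in the first and the third KO library of stage III and 17906 to 27912 in the others, which bears on the comparisons with stage III at the end.

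The RNA fitted the sort. Cd27 was at 378 to 401 CPM in KO and 421 to 454 CPM in WT of stage II, against 29.7 to 81.9 CPM in stage IV of either genotype. Itgam, which encodes CD11b, was at 22.3, 26.5 and 17.6 CPM in KO and 61.1, 50.9 and 41.6 CPM in WT of stage II, against 486 to 847 CPM in stage IV. Within stage II Itgam was lower in each KO library than in any WT library without passing the test (log2 -1.20 ± 0.32, SE, n = 3 each; adjusted p = 0.089). With the replicate number as a block its adjusted p was 0.0316. Both genes encode proteins used for the sort, so neither is read as a result.

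Eomes itself (ENSMUSG00000032446, chromosome 9, 118478212 to 118486132 on GRCm38) was at 55.2, 74.3 and 59.7 CPM in the KO libraries and at 191, 210 and 213 CPM in the WT libraries. Every KO library lay far below every WT library. The mean was 63.1 ± 10 CPM in KO and 205 ± 12 CPM in WT (SD, n = 3 each), 3.26-fold lower in KO (log2 -1.70 ± 0.15, adjusted p = 1.15e-05). Counts cover the whole gene and the labels do not name the floxed exons, so this value does not give the share of cells without a working allele. In bulk RNA, fewer cells of a type and less RNA per cell cannot be told apart. Against WT replicate 1 alone, an alternative chosen after seeing the data, the log2 change was -1.37 (adjusted p = 0.00761). Tbx21 was at 182, 101 and 96.5 CPM in KO and 144, 115 and 89.5 CPM in WT (log2 0.12 ± 0.20, adjusted p = 0.984), with overlapping groups.

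Of 14156 genes tested, 207 (1.46%) passed an adjusted p of 0.05 in stage II: 66 were higher in KO (0.466%) and 141 were lower (0.996%). The lower genes also had the larger changes: 104 of them were lower by at least 2-fold, against 29 of the higher genes, and the median log2 change was -1.35 among the lower and 0.95 among the higher genes, beside -0.006 over all tested genes. The excess of lower over higher genes depended on the method. DESeq2 called 143 genes higher and 225 lower, and the stage II libraries alone gave 152 and 193. With limma voom the numbers were 533 and 528, and from the stage II libraries with the replicate number as a block 307 and 303. The KO and WT values of 206 of the 207 genes did not overlap, whereas over all tested genes KO lay above WT in every library for 10.5% and below for 9.02%. Just inside the threshold stood Serpina3g (adjusted p = 0.0486), Tspan31 (0.0486) and Tcrg-C4 (0.0491), and just outside it 2010016I18Rik (0.053), Tnfrsf18 (0.0551) and Tmsb15a (0.0551). With the Xist term the calls of Serpina3g, Tspan31 and Tcrg-C4 were lost (adjusted p = 0.161, 0.247 and 0.226). The size of the count depended on which libraries were used. It was 133, 127 and 107 without KO replicate 1, 2 or 3, 105 and 106 without WT replicate 2 or 3, and 221 without WT replicate 1. With the Xist term it was 127. It was 325 without KO stage III replicate 1, a library of neither stage II group that enters through the shared estimate of the spread and the filter on low counts, with 16356 genes tested there. Against WT replicate 1 alone 34 genes were called (5 higher, 29 lower), of which 33 were among the 207, and all 207 had the same sign there. WT replicate 1 was the highest WT library for 60 of the 66 higher genes (90.9%, against 57.7% of all tested genes) and the lowest for 63 of the 141 lower genes (44.7%, against 23.7%). The part of these differences among the WT libraries in the calls was not tested beyond these refits.

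**Figure D1:**
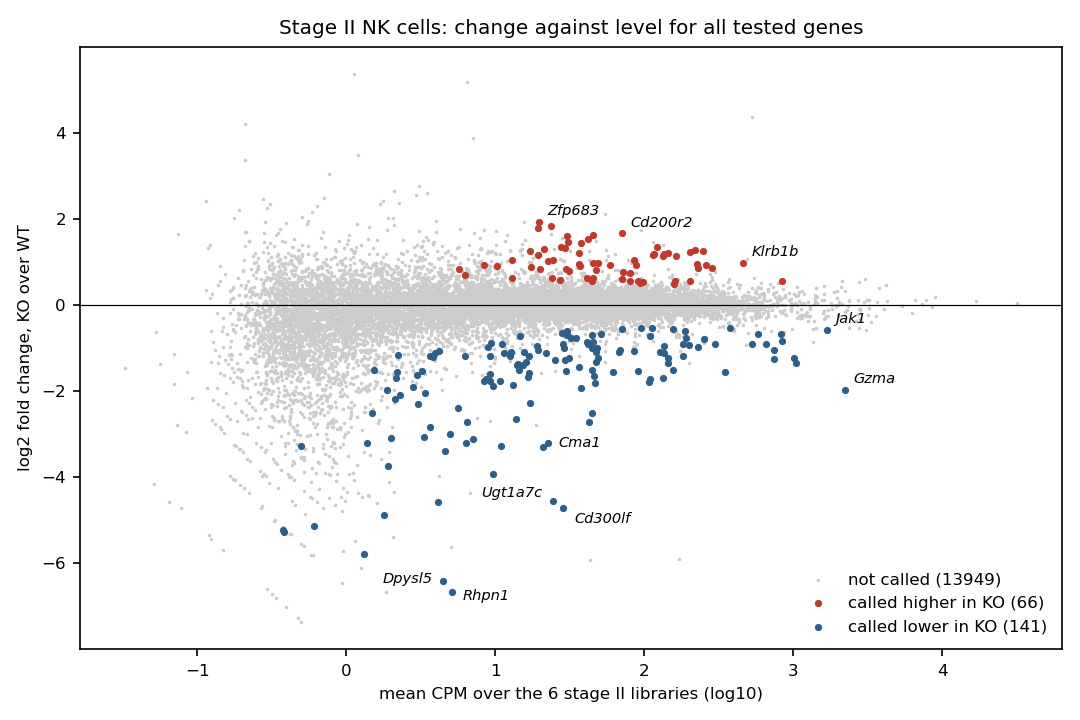
Change against level for the 14156 tested genes in stage II. The x axis is the mean CPM over the 6 libraries on a log10 scale and the y axis the log2 fold change of KO over WT; red points are the 66 genes called higher in KO, blue points the 141 called lower, grey points the genes not called, and the largest changes among called genes lie on the lower side, down to -6.66 for Rhpn1.

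Genes of cytotoxic granule proteins that changed were lower in KO. Of 16 measured members 6 were lower, none was higher, and the median log2 change over the list was -0.54, beside -0.01 over all tested genes. Here and for each list below, the shares over all tested genes were 0.996% lower and 0.466% higher. Gzma, the gene of granzyme A (chromosome 13, 113093825 to 113100979), was at 790, 958 and 957 CPM in KO and 3480, 3630 and 3450 CPM in WT. Gzma had a log2 change of -1.97 ± 0.25, 3.92-fold lower (adjusted p = 2.27e-04). Gzmk, the gene of the tryptase-like granzyme K on the same chromosome, was at 1.92, 1.63 and 2.60 CPM in KO and 22.6, 20.2 and 17.0 CPM in WT. Gzmk had a log2 change of -3.28 ± 0.64 (adjusted p = 0.0114). Gzmm, which encodes granzyme M, a protease that cuts after methionine and related residues, was at 18.3, 19.2 and 24.3 CPM in KO and 70.0, 76.9 and 69.6 CPM in WT. Gzmm had a log2 change of -1.81 ± 0.24 (adjusted p = 3.84e-04). Cma1, which encodes chymase, a protease best known from mast cells, was at 2.72, 7.28 and 3.14 CPM in KO and 46.6, 36.7 and 38.7 CPM in WT. Cma1 had a log2 change of -3.21 ± 0.41 (adjusted p = 2.81e-04). In all 4 genes every KO library was well below every WT library.

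Prf1, the gene of the pore-forming perforin, was at 386, 389 and 317 CPM in KO and 675, 697 and 686 CPM in WT. Prf1 had a log2 change of -0.92 ± 0.19, 1.89-fold lower (adjusted p = 0.0181). Cst7, which encodes cystatin F, an inhibitor of the cathepsins that activate granzymes, was at 199, 214 and 214 CPM in KO and 387, 397 and 382 CPM in WT. Cst7 had a log2 change of -0.90 ± 0.17 (adjusted p = 0.00957). Both calls were lost on leaving out any 1 of KO replicates 1 to 3 or WT replicates 2 and 3, and with the Xist term (adjusted p = 0.0951 for Prf1 and 0.0656 for Cst7). The Gzmk call did not hold without KO replicate 1, 2 or 3. Gzmb, the gene of granzyme B, was at 147, 238 and 196 CPM in KO and 262, 335 and 367 CPM in WT without passing the test (log2 -0.74 ± 0.25, adjusted p = 0.271). With the replicate block Gzmb passed as lower (adjusted p = 0.00304). Nkg7, a granule membrane protein gene, was at 5660 to 6270 CPM in KO and 6360 to 6860 CPM in WT (log2 -0.18 ± 0.22, adjusted p = 0.965). Of 18 genes of the machinery that moves and fuses granules, none was called.

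**Figure D2:**
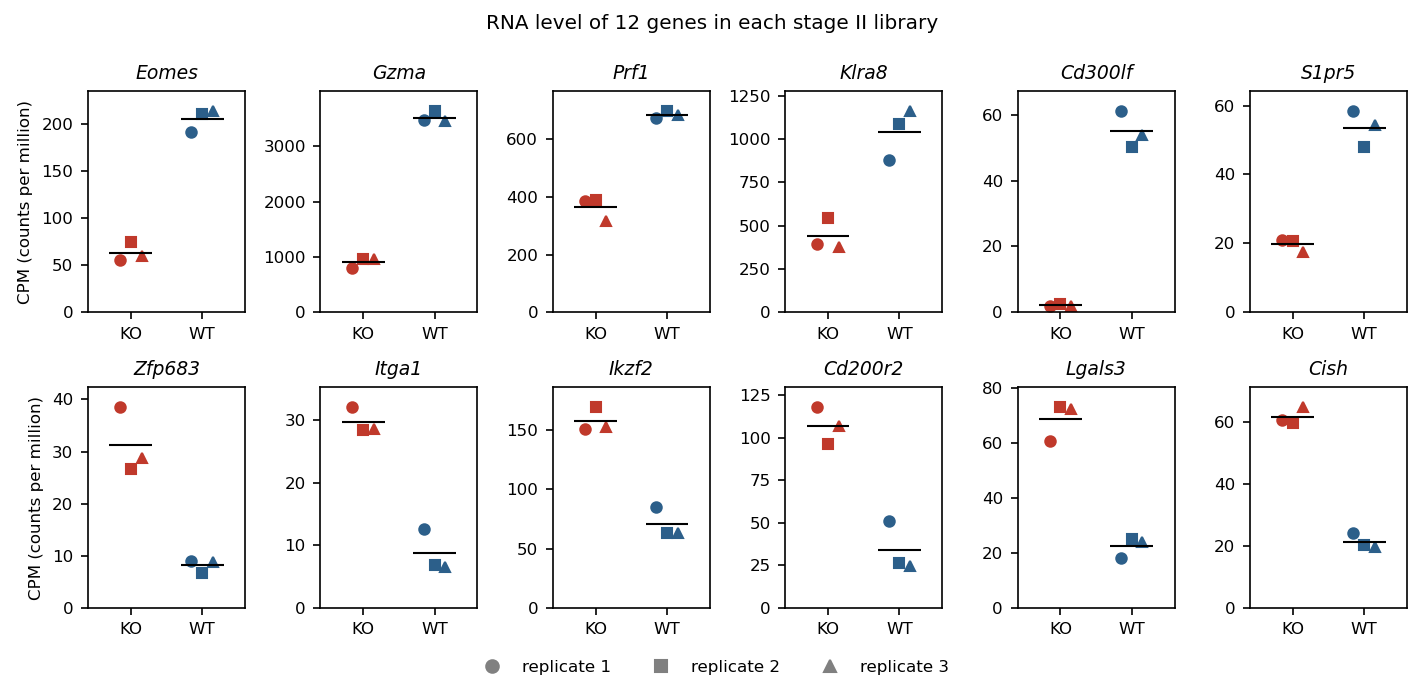
CPM of 12 genes in each stage II library, KO left and WT right, with a symbol per replicate number and a line at the mean of the group. The y axis starts at 0; the 6 genes of the upper row were lower in KO and the 6 of the lower row higher, and in the lower row WT replicate 1 was the WT library nearest to KO for Itga1, Ikzf2, Cd200r2 and Cish.

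T-box factors bind a core sequence, here searched as GGTGTGA on both strands in RefSeq promoters of GRCm38.p6, taken as 250 bases before to 50 bases after the start. Among genes with a promoter in that table the core stood in 7 of 103 genes lower in KO (6.80%) and in 2 of 47 genes higher in KO (4.26%), beside 427 of 10197 tested genes (4.19%) and 1307 of all 32851 promoters (3.98%). The core is short and a match is only a description of the letters. The promoters of 4 called genes that hold it are printed 5′ to 3′ on the strand of the gene, with the core in capitals, because they show where these letters lie in 3 genes lower and 1 gene higher in KO. They are Gzmk at chr13:113180916-113181215 on the minus strand, Gzmm at chr10:79693576-79693875 on the plus strand, which is 1 of 2 starts listed for it, Myb at chr10:21160935-21161234 on the minus strand and Cd200r2 at chr16:44866847-44867146 on the plus strand.
Gzmk: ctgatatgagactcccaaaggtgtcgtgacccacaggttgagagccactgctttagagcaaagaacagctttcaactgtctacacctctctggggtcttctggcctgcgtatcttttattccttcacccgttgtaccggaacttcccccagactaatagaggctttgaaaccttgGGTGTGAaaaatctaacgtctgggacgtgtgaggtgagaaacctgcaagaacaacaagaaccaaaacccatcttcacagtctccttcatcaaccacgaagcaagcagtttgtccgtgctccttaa
Gzmm: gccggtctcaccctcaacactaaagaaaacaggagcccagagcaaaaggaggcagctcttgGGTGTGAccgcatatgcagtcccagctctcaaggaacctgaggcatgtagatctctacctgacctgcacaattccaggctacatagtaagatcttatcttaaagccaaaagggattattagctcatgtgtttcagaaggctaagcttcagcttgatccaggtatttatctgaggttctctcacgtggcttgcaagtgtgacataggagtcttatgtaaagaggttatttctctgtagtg
Myb: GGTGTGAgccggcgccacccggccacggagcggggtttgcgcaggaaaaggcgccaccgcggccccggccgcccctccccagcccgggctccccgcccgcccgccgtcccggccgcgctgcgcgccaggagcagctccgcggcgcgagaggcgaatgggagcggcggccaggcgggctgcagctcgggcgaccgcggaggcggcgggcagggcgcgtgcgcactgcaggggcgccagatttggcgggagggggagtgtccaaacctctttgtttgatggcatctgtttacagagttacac
Cd200r2: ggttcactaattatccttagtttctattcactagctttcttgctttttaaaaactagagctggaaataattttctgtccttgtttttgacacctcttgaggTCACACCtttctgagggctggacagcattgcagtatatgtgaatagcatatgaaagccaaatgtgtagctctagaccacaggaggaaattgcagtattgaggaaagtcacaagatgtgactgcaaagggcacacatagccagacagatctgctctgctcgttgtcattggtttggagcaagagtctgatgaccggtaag
The core began 75 bases before the start in Gzmk, 189 in Gzmm and 250 in Myb, and 149 in Cd200r2, where the printed strand carries its reverse complement. Dpysl5, which was lower in KO by 1 of the largest changes, had no match in the same window.

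Among transcription factors of NK cells 4 of 43 were higher in KO and 4 were lower, with a median log2 change of 0.04. Besides Eomes, 3 factors were lower. Myb, a factor of progenitors and proliferating lymphocytes, was at 2.84, 4.35 and 4.19 CPM in KO and 16.1, 24.2 and 30.4 CPM in WT. Myb had a log2 change of -2.66 ± 0.47 (adjusted p = 0.00503). Prdm1, the gene of Blimp-1, had a log2 change of -1.0 ± 0.20 (adjusted p = 0.0115), and Irf8, an interferon regulatory factor, had a change of -0.92 ± 0.20 (adjusted p = 0.0267). Batf3, a leucine zipper factor best known from cross-presenting dendritic cells and not a member of that list, was at 3.53, 2.51 and 5.51 CPM in KO and 38.1, 36.0 and 40.3 CPM in WT. Batf3 had a log2 change of -3.31 ± 0.61 (adjusted p = 0.00654). The higher ones were led by Zfp683, the gene of Hobit, a factor of tissue-resident lymphocytes, at 38.5, 26.6 and 28.7 CPM in KO and 9.07, 6.64 and 8.90 CPM in WT (log2 1.93 ± 0.28, adjusted p = 9.42e-04). Ikzf2, which encodes Helios, was at 151, 169 and 152 CPM in KO and 85.3, 63.4 and 63.4 CPM in WT. Ikzf2 had a log2 change of 1.16 ± 0.13 (adjusted p = 7.02e-05). Maf, the gene of c-MAF, was at 113, 106 and 127 CPM in KO and 72.6, 46.9 and 50.3 CPM in WT (log2 1.04 ± 0.20, adjusted p = 0.0114), and Batf, an AP-1 family partner, rose by 1.41-fold (log2 0.50 ± 0.11, adjusted p = 0.029). KO and WT did not overlap in any of these genes. The calls of Myb, Prdm1, Irf8, Maf and Batf did not hold with the Xist term (adjusted p = 0.0529, 0.0876, 0.144, 0.0814 and 0.143), under which 2 members of the list were higher and 1 was lower. Single libraries also decided calls. That of Batf3 was lost without KO replicate 2, that of Prdm1 without any 1 of KO replicates 1 to 3 or WT replicates 2 and 3, and that of Maf without KO replicate 3 or WT replicate 2 or 3. The Irf8 and Batf calls were lost on leaving out any of 11 and 10 of the 18 libraries.

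The receptors of the Ly49 family, lectin-like receptors for MHC class I encoded side by side on chromosome 6, were lower in 8 of 13 measured members. All 13 had a negative log2 change, and the median was -1.09. Klra8, which encodes Ly49H, an activating receptor for a cytomegalovirus protein, was at 394, 544 and 379 CPM in KO and 881, 1090 and 1160 CPM in WT. Klra8 had a log2 change of -1.26 ± 0.18 (adjusted p = 8.21e-04). Klra4, the gene of the activating Ly49D, was at 539, 758 and 519 CPM in KO and 1230, 1480 and 1530 CPM in WT. Klra4 had a log2 change of -1.24 ± 0.19 (adjusted p = 0.00121). Klra1, the gene of the inhibitory Ly49A, was at 77.1, 89.4 and 90.6 CPM in KO and 186, 206 and 212 CPM in WT (log2 -1.24 ± 0.20, adjusted p = 0.00265). Klra7, the gene of the inhibitory Ly49G, was at 405, 509 and 461 CPM in KO and 807, 915 and 858 CPM in WT (log2 -0.91 ± 0.17, adjusted p = 0.00755). Activating and inhibitory members were thus lower alike, by 1.88-fold to 2.40-fold among the 8 called genes, which also hold Klra3, Klra6, Klra9 and Klra14-ps. The 8 genes and the predicted gene Gm15854 span 414 kb, from 129972380 to 130386874. Ly49 genes are near-identical copies, so the authors' counting could have moved reads among them and the value of a single member is uncertain. Klra13-ps (log2 -0.87 ± 0.32, adjusted p = 0.331) and the low Klra17 (log2 -1.22 ± 0.43, adjusted p = 0.288) did not pass, although with the replicate block Klra13-ps was lower (adjusted p = 0.0277). With the Xist term 6 of the 13 were lower (Klra3 and Klra6 dropped out, with adjusted p = 0.0912 and 0.0529), and against WT replicate 1 alone none passed while the median was -0.77. The Gm15854 call was lost with the Xist term too (adjusted p = 0.157), and without KO replicate 1 or 3, WT replicate 2 or 3 or WT stage III replicate 2. The calls of Klra3, Klra6 and Klra7 were also lost without KO replicate 1 or WT replicate 2 or 3, those of Klra3 and Klra7 without KO replicate 3 and that of Klra6 without KO replicate 2.

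Of 15 genes of the CD94/NKG2 and NKR-P1 receptors 3 were lower and 1 was higher in KO (median log2 -0.17). Klrg1, an inhibitory receptor for cadherins that marks mature NK cells, was at 17.7, 20.7 and 13.1 CPM in KO and 51.6, 36.5 and 37.2 CPM in WT. Klrg1 had a log2 change of -1.28 ± 0.25 (adjusted p = 0.0123). Klre1, which encodes a partner chain of lectin-like receptors, was at 558, 599 and 634 CPM in KO and 1060, 1110 and 1050 CPM in WT (log2 -0.85 ± 0.20, adjusted p = 0.0352), and Klrc3, which encodes NKG2E, was lower by 1.52-fold (log2 -0.61 ± 0.14, adjusted p = 0.0289). Klrb1b, the gene of the inhibitory NKR-P1B, went the other way, at 649, 589 and 599 CPM in KO and 380, 275 and 283 CPM in WT. Klrb1b had a log2 change of 0.98 ± 0.13 (adjusted p = 5.16e-04). Klrd1, the gene of CD94, was at 1060, 1190 and 1010 CPM in KO and 1310, 1440 and 1440 CPM in WT. Klrd1 had a log2 change of -0.37 ± 0.16 (adjusted p = 0.507), which did not pass the test. The Klre1 and Klrc3 calls did not hold with the Xist term (adjusted p = 0.145 and 0.187) and were lost on leaving out any of 15 and 14 of the 18 libraries; the Klrg1 call was lost without KO replicate 1 or 3.

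In the SLAM family 2 of 10 members were lower (median log2 -0.32). Sh2d1a, the gene of SAP, the adaptor through which SLAM receptors activate, was at 80.6, 87.1 and 74.5 CPM in KO and 205, 242 and 240 CPM in WT (log2 -1.51 ± 0.18, adjusted p = 1.57e-04). Slamf6, the gene of the SAP-binding receptor Ly108, was at 19.3, 27.1 and 22.5 CPM in KO and 64.5, 71.4 and 61.3 CPM in WT (log2 -1.52 ± 0.26, adjusted p = 0.00386). Among 23 other activating receptors and adaptors 4 were lower by small amounts: Cd247, the zeta chain (log2 -0.79 ± 0.18, adjusted p = 0.0274), the kinases Fyn (log2 -0.78 ± 0.18, adjusted p = 0.0348) and Syk (log2 -0.55 ± 0.11, adjusted p = 0.0166), and the adaptor gene Lat2 (log2 -0.55 ± 0.13, adjusted p = 0.0342). None of these 4 held with the Xist term (adjusted p = 0.0674, 0.07, 0.052 and 0.112), and each was lost on leaving out any of 9 to 16 of the 18 libraries. Ncr1, which encodes NKp46 and carries the Cre in KO mice, did not pass (log2 -0.55 ± 0.27, adjusted p = 0.587), and with the Xist term its change was 0.08.

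Of 22 checkpoint and nectin-binding receptors 3 were lower and 1 was higher, while the median log2 change of the list was 0.56. Cd300lf, an inhibitory receptor for phospholipids, was low in KO, at 1.76, 2.59 and 1.91 CPM, against 61.1, 50.4 and 54.0 CPM in WT (log2 -4.72 ± 0.56, or 26.3-fold lower; adjusted p = 1.25e-04). Lair1, an inhibitory collagen receptor, was at 13.6, 19.4 and 12.9 CPM in KO and 38.9, 47.0 and 45.7 CPM in WT (log2 -1.53 ± 0.21, adjusted p = 5.27e-04). Crtam, an activating receptor for a nectin-like ligand, was at 82.1, 91.2 and 85.8 CPM in KO and 177, 206 and 174 CPM in WT (log2 -1.11 ± 0.19, adjusted p = 0.00399). Fcgr2b, the inhibitory Fc receptor, which is on no list and was chosen after its values were seen, fell by 1.32 on the log2 scale (± 0.21; adjusted p = 0.00201). Cd200r2, a member of the CD200 receptor family, was at 118, 96.4 and 107 CPM in KO and 51.0, 26.5 and 24.8 CPM in WT. Cd200r2 had a log2 change of 1.67 ± 0.25 (adjusted p = 0.00116). The related Cd200r1, the inhibitory CD200 receptor, was at 169, 146 and 188 CPM in KO and 78.5, 58.0 and 48.6 CPM in WT without passing the test (log2 1.45 ± 0.38, adjusted p = 0.0828). Tigit, an inhibitory receptor for nectin-like ligands, was at 45.6, 68.2 and 63.1 CPM in KO and 84.6, 128 and 128 CPM in WT (log2 -0.96 ± 0.25, adjusted p = 0.0829), and it passed as lower with the replicate block (adjusted p = 0.00621).

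Receptors that guide NK cells between tissues were lower in 5 of 17 cases and higher in none (median log2 -0.28). S1pr5, through which maturing NK cells leave bone marrow and lymph nodes, was at 21, 20.8 and 17.5 CPM in KO and 58.3, 47.9 and 54.3 CPM in WT. S1pr5 had a log2 change of -1.44 ± 0.14 (adjusted p = 2.10e-05). The chemokine receptor gene Ccr2 was at 468 to 495 CPM in KO and 964 to 1030 CPM in WT, lower by 2.08-fold (log2 -1.06 ± 0.11; adjusted p = 6.43e-05). Cmklr1, the chemerin receptor, was low in both groups, at 0.422, 1.42 and 0.456 CPM in KO and 3.81, 3.30 and 3.40 CPM in WT. Cmklr1 had a log2 change of -2.18 ± 0.32 (adjusted p = 8.21e-04). S1pr5, Ccr2 and Cmklr1 held with the Xist term and in each fit that left out 1 library.

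Of 17 integrin genes 2 were higher and 1 was lower (median log2 -0.04). Itga1, the gene of CD49a, the collagen-binding integrin chain used to mark ILC1 and tissue-resident NK cells in mice, was at 32.1, 28.5 and 28.6 CPM in KO and 12.7, 6.83 and 6.61 CPM in WT. Itga1 had a log2 change of 1.79 ± 0.31 (adjusted p = 0.00369). Itgb7, which pairs with the gut-homing alpha 4 chain, was at 420, 326 and 361 CPM in KO and 214, 214 and 184 CPM in WT. Itgb7 had a log2 change of 0.85 ± 0.14 (adjusted p = 0.00283). The laminin-binding chain gene Itga6 was lower (log2 -1.18 ± 0.28, adjusted p = 0.0425), a call lost on leaving out any of 13 of the 18 libraries.

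The markers of ILC1 were the list with the largest share of members higher in KO. Lists and members were chosen with earlier results of these data known, so this rank is a description. Of 18 measured markers 6 were higher, beside 0.466% of all tested genes, and none was lower. A positive log2 change was seen in 16, and the median was 0.94. The summed level of the list was 7840 to 8410 CPM in KO and 5540 to 5940 CPM in WT. Its largest members were not called. They were Cd160, at 2330 to 2700 CPM in KO and 1540 to 2090 CPM in WT, and Xcl1, at 1220 to 1980 and 976 to 1510 CPM. The sum is therefore not a measure of the called markers. Besides Zfp683, Itga1 and Ikzf2 the called markers were Tmem176a and Tmem176b, which encode related membrane proteins, and Tnfsf10, the gene of TRAIL, a death ligand of ILC1. Tmem176b was at 381, 324 and 344 CPM in KO and 185, 129 and 130 CPM in WT (log2 1.25 ± 0.18, adjusted p = 6.77e-04), Tmem176a was 2.54-fold higher (log2 1.35 ± 0.26, adjusted p = 0.00989), and Tnfsf10 was at 88.4, 65.2 and 76.1 CPM in KO and 55.2, 32.6 and 34.9 CPM in WT (log2 0.92 ± 0.19, adjusted p = 0.0168). Rora, a nuclear receptor of innate lymphoid cells, was at 103 to 115 CPM in KO and 48.3 to 60.2 CPM in WT (log2 0.97 ± 0.25, adjusted p = 0.0672), and Il7r was at 613 to 697 CPM in KO and 249 to 425 CPM in WT (log2 1.07 ± 0.28, adjusted p = 0.08), neither passing the test. In the same libraries 10 of 11 NK cell markers had a negative log2 change, although only Gzma and Eomes were lower by the test. The summed level of those markers was 19300 to 21600 CPM in KO and 25000 to 27300 CPM in WT. That list holds the deleted gene, Eomes, whose change was set by the design, and Ncr1, which carries the Cre in KO mice. Within the sum, Gzma was at 790 to 958 CPM in KO and 3450 to 3630 CPM in WT. Ncr1 was at 2130 to 2350 CPM in KO and 2380 to 3800 CPM in WT. With the Xist term 4 of the 18 ILC1 markers were higher, Tmem176a and Tnfsf10 dropping out (adjusted p = 0.0825 and 0.121), and against WT replicate 1 alone 1 was, with a median of 0.97. Leaving out WT replicate 2 or 3 ended the calls of Tmem176a and Tnfsf10, and leaving out KO replicate 1 or 3 that of Tnfsf10.

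**Figure D3:**
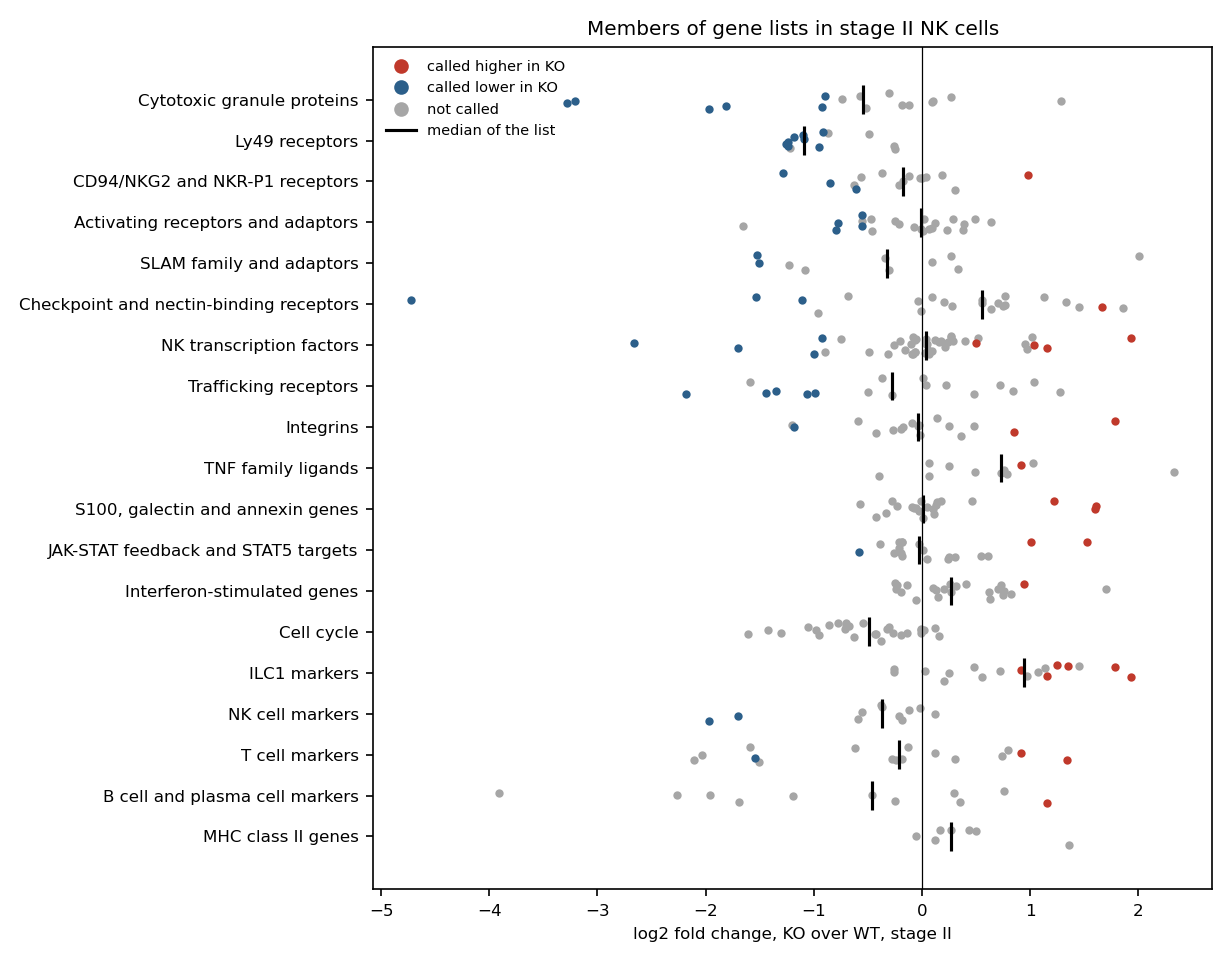
Log2 fold change of KO over WT in stage II for the measured members of 19 gene lists. Each point is a gene, red if called higher in KO, blue if called lower and grey if not called, and the black bar is the median of the list, which ran lowest at -1.09 for the Ly49 receptors and highest at 0.94 for the ILC1 markers.

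Of 21 S100, galectin and annexin genes 3 were higher and none lower (median log2 0.01). Lgals3, the gene of galectin-3, was at 60.6, 73.0 and 72.4 CPM in KO and 18.1, 25.0 and 24 CPM in WT. Lgals3 had a log2 change of 1.61 ± 0.26 (adjusted p = 0.00197). S100a4 was at 41.3, 48.2 and 46.2 CPM in KO and 16.3, 14.1 and 14.5 CPM in WT (log2 1.6 ± 0.18, adjusted p = 7.02e-05), and its neighbour S100a6 was 2.32-fold higher (log2 1.22 ± 0.20, adjusted p = 0.00201). Of 25 actin regulators 2 were higher, Nebl, the gene of the actin-binding nebulette (log2 1.45 ± 0.20, adjusted p = 5.27e-04), and Gsn, the gene of the actin-severing gelsolin (log2 1.43 ± 0.29, adjusted p = 0.0161). The Gsn call was lost with the Xist term (adjusted p = 0.113) and without KO replicate 1 or 3 or any WT replicate.

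Among 19 genes of JAK-STAT feedback and STAT5 targets 2 were higher and 1 was lower (median log2 -0.03). Cish, an SH2 protein induced by STAT5 that restrains signalling of IL-2 and IL-15 receptors, was at 60.8, 59.8 and 64.9 CPM in KO and 24.1, 20.4 and 19.8 CPM in WT. Cish had a log2 change of 1.53 ± 0.18 (adjusted p = 1.26e-04). Socs2, a related inhibitor, was at 27.9, 27.4 and 34.5 CPM in KO and 20.1, 10.9 and 14.0 CPM in WT (log2 1.01 ± 0.23, adjusted p = 0.0339). Jak1, the kinase shared by many cytokine receptors, was at 1370, 1390 and 1330 CPM in KO and 1900, 2050 and 2140 CPM in WT (log2 -0.58 ± 0.12, adjusted p = 0.0166). The Socs2 and Jak1 calls were lost with the Xist term (adjusted p = 0.156 and 0.0912), and on leaving out any stage II library other than WT replicate 1. That of Jak1 was also lost without some libraries of stages III and IV, in 12 of the 18 fits that left out 1 library. None of 25 cytokine receptors, 14 cytokines and chemokines or 16 genes of the TGF-beta pathway was called. Of 11 ligands of the TNF family 10 had a positive log2 change (median 0.73), but only Tnfsf10 passed. Tnfsf8, the gene of CD30 ligand, was at 106, 110 and 96.0 CPM in KO and 76.5, 38.5 and 39.6 CPM in WT (log2 1.03 ± 0.31, adjusted p = 0.165), and it passed as higher with the replicate block (adjusted p = 0.0111). Fas was the only 1 of 14 TNF receptors called (log2 0.82 ± 0.19, adjusted p = 0.0352). Its call was lost with the Xist term (adjusted p = 0.156), on leaving out any stage II library other than WT replicate 1, and without KO stage IV replicate 2. Of 23 interferon-stimulated genes 11 lay above WT in every KO library, beside 10.5% of all tested genes. Only Ifit1 passed, at 41.4, 45.0 and 56.7 CPM in KO and 37.2, 17.5 and 20.8 CPM in WT (log2 0.94 ± 0.21, adjusted p = 0.0274). WT replicate 1 was nearly as high as KO in Ifit1 and in Mx1 (18, 18.7 and 20.2 CPM in KO and 17.0, 8.05 and 7.85 CPM in WT; log2 0.82 ± 0.29, adjusted p = 0.323), and the Ifit1 call was lost with the Xist term (adjusted p = 0.144) and without KO replicate 3 or WT replicate 2 or 3.

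None of the 28 cell cycle genes passed, although 25 had a negative log2 change and the median was -0.48. Mki67, the gene of the proliferation marker Ki-67, was at 6.09, 9.41 and 11.4 CPM in KO and 6.59, 25.5 and 18.8 CPM in WT (log2 -0.95 ± 0.60, adjusted p = 0.774), so that WT replicate 1 lay within KO, and against that library alone the median of the list was 0.32. No member was called among 25 apoptosis regulators, 8 GIMAP GTPases, 17 genes of glycolysis, 20 of oxidative phosphorylation, 21 of sterol and fatty acid synthesis, 13 of amino acid and iron uptake with Myc, 16 of MHC class I and peptide loading and 21 immediate early and stress genes, with medians between -0.16 and 0.12.

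Markers of other cell types were measured beside these groups. T cell markers summed to 1820 to 2210 CPM in KO and 1730 to 2020 CPM in WT, with 2 of 16 higher (Tcrg-C4 and Camk4, log2 0.92 ± 0.22 and 1.34 ± 0.28; adjusted p = 0.0491 and 0.0171) and 1 lower. Both higher calls were lost with the Xist term (adjusted p = 0.226 and 0.128) and without KO replicate 1 or 3 or WT replicate 2 or 3, and that of Tcrg-C4 in 12 of the 18 fits that left out 1 library. The lower gene was Cd3d, a chain of the T cell receptor complex, at 48.7, 37.9 and 51.8 CPM in KO and 142, 139 and 120 CPM in WT (log2 -1.54 ± 0.23, adjusted p = 0.00121). The defining Cd3e was at 7.97, 9.04 and 13.6 CPM in KO and 9.48, 47.0 and 33.5 CPM in WT. B cell markers summed to 1160 to 1390 CPM in KO and 1020 to 1110 CPM in WT, with 1 of 11 higher (Cd79b, log2 1.16 ± 0.25, adjusted p = 0.0229). The Cd79b call was lost with the Xist term (adjusted p = 0.152) and without KO replicate 1 or 3 or WT replicate 2 or 3. MHC class II genes summed to 902 to 1060 CPM in KO and 631 to 819 CPM in WT with none of 7 called, myeloid markers to 19.2 to 44.1 CPM in KO and 33.5 to 51.8 CPM in WT with none of 15 called, and erythroid and platelet markers to 3.87 to 11.6 CPM in KO and 4.70 to 7.63 CPM in WT with none of 9 called. Stromal and endothelial markers summed to 76.2 to 195 CPM in KO and 94.0 to 160 CPM in WT, nearly all of it Pecam1 (75.7 to 194 CPM in KO and 93.3 to 147 CPM in WT). None of the 3 tested was called, and their median log2 change was -3.31. The collagen gene Col1a1 was at 0.115, 0.335 and 0 CPM in KO and 4.64, 0.0969 and 0.229 CPM in WT, and Pdgfra and Kdr were also highest in WT replicate 1, at 2.42 and 1.75 CPM. Of 8 markers of ILC2 and ILC3 1 was called (Klrg1, lower), and of 6 sex-linked transcripts none was. The part of other cells in the changes was not tested.

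The largest changes were in genes with little known role in NK cells, and several were nearly silent in KO. Rhpn1 was at 0.115, 0.167 and 0 CPM in KO and 6.13, 12.7 and 11.8 CPM in WT. Rhpn1 had a log2 change of -6.66 ± 0.72 (adjusted p = 6.43e-05). Dpysl5, a gene of the collapsin response mediator family known from neurons, was at 0.0766, 0.167 and 0.0456 CPM in KO and 8.71, 9.55 and 8.03 CPM in WT. Dpysl5 had a log2 change of -6.42 ± 0.84 (adjusted p = 3.24e-04). Ugt1a7c, which encodes an enzyme that couples glucuronic acid to lipophilic compounds, was at 1.57, 2.93 and 1.5 CPM in KO and 41.9, 50.7 and 47.8 CPM in WT (log2 -4.55 ± 0.55, adjusted p = 1.57e-04); Ugt1a genes share exons, so its reads may belong to another of them. Clip3, a gene of a microtubule-associated protein, was at 1.49, 1.59 and 0.501 CPM in KO and 10.5, 23.2 and 21.1 CPM in WT. Clip3 had a log2 change of -3.94 ± 0.53 (adjusted p = 4.16e-04). Cyp17a1, a gene of steroid hormone synthesis, and Fcrl6, an Fc receptor-like gene, were lower by 13.4-fold and 10.5-fold (log2 -3.74 ± 0.61 and -3.39 ± 0.48; adjusted p = 0.00222 and 7.06e-04).

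In 4 of these genes the KO libraries held 3 counts or fewer in all, so the ratio of summed counts is given with its exact 95% counting interval in place of a fitted fold. Col19a1, a collagen gene, had 3 counts in KO and 159 in WT, a ratio of 0.0162 (0.00331 to 0.0483). Smoc2, a matrix protein gene, had 1 count in KO and 46 in WT, a ratio of 0.0187 (0.000463 to 0.109), and Bco1, the gene of a beta-carotene cleaving enzyme, had 1 and 45, a ratio of 0.0191 (0.000473 to 0.112). Gm16329, a predicted gene, had 2 counts in KO and 72 in WT, a ratio of 0.0239 (0.00284 to 0.0894). All 4 were called lower, but those of Smoc2 and Bco1 were lost on leaving out any of 6 and 11 of the 18 libraries.

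Igf2r, Cd55, Mcam, Arl5c, Cym and Ctla2a are on no list and were chosen for description after their values were seen. Mcam, the adhesion receptor CD146, was at 1.07, 1.59 and 1.73 CPM in KO and 12.1, 12.9 and 13.1 CPM in WT. Mcam had a log2 change of -3.12 ± 0.33 (adjusted p = 4.65e-05). Cym, the gene of the protease chymosin, was at 12.3, 10 and 11.3 CPM in KO and 77.6, 60.3 and 85.3 CPM in WT. Cym had a log2 change of -2.73 ± 0.25 (adjusted p = 1.15e-05). Igf2r, the mannose 6-phosphate receptor that sorts hydrolases to lysosomes and granules, was at 34.6, 27.6 and 31.4 CPM in KO and 99.3, 93.2 and 82.5 CPM in WT. Igf2r had a log2 change of -1.56 ± 0.12 (adjusted p = 1.01e-05). Cd55, an inhibitor of complement, was at 20.4, 25.7 and 21 CPM in KO and 50.9, 79.2 and 78.4 CPM in WT. Cd55 had a log2 change of -1.65 ± 0.24 (adjusted p = 8.58e-04). Arl5c, a gene of a small GTPase, was at 16.8, 13.8 and 9.57 CPM in KO and 72.4, 93.5 and 61.4 CPM in WT. Arl5c had a log2 change of -2.51 ± 0.24 (adjusted p = 1.84e-05). On the higher side stood Crybg2 (log2 1.84 ± 0.30, adjusted p = 0.00211), Susd3 (1.32 ± 0.20; 0.00139), the sialyltransferase gene St6galnac3 (1.29 ± 0.20; 0.00176) and Asb2, a subunit of a ubiquitin ligase (1.28 ± 0.24; 0.00965). The Asb2 call was lost without KO replicate 1 or WT replicate 3 and with the Xist term (adjusted p = 0.0694).

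With a gap of at most 100 kb, 54 of the 207 called genes fell into 20 groups of neighbours, and in 19 of these all members changed in 1 direction. The same share among genes not called was not computed. The largest besides the Ly49 genes was on chromosome 1, from 21349641 to 21391101, where Khdc1a, Khdc1b, Khdc1c, Gm16328 and Gm16329 were all lower. Khdc1b was at 0.307, 0.126 and 0.547 CPM in KO and 8.96, 8.58 and 6.01 CPM in WT (log2 -4.58 ± 0.46, adjusted p = 2.98e-05), Gm16328 at 0.0383 to 0.251 CPM in KO and 3.19 to 3.58 CPM in WT (log2 -4.88 ± 0.59, adjusted p = 1.57e-04) and Khdc1a at 0.293 to 0.575 CPM in KO and 2.98 to 4.17 CPM in WT (log2 -3.09 ± 0.35, adjusted p = 7.58e-05). Khdc1c (log2 -3.29 ± 0.74, adjusted p = 0.0287) was lost on leaving out any of 10 libraries. On chromosome 13 Gzma and Gzmk lay with Cdc20b, and elsewhere on it Ctla2a and Ctla2b, which encode inhibitors of cysteine proteases, were lower (log2 -1.57 ± 0.18 and -0.93 ± 0.22; adjusted p = 7.58e-05 and 0.0424). The Ctla2b call was lost with the Xist term (adjusted p = 0.204) and in 15 of the 18 fits that left out 1 library. Zfp683 and Crybg2 on chromosome 4, S100a4 and S100a6 on chromosome 3, and Tmem176a and Tmem176b on chromosome 6 were higher as pairs, and Klrb1b with BC035044 was the 1 group of mixed direction. The BC035044 call was lost with the Xist term (adjusted p = 0.0783). The strand setting of the counting is not given, and the Khdc1, Tmem176, Ctla2 and Serpina3 genes have close copies beside them, so reads may have been shared within such groups.

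The same contrast was made in stages III and IV with other libraries, where 1119 (7.9%) and 72 (0.509%) of the tested genes were called. The fits share 1 estimate of the spread. They also share the split of the WT replicates: Xist was at 35.5, 0.141 and 0.481 CPM in WT replicates 1, 2 and 3 of stage III. In stage IV it was at 43.2, 0.203 and 0.636 CPM. The counts below are therefore not separate from the differences among the WT libraries, whose part in them was not tested. Of the 66 genes higher in stage II, 62 had a positive log2 change in stage III (39 called, against 5.16% of all tested genes) and 49 in stage IV (10 called, against 0.24%). Of the 141 lower genes, 124 had a negative log2 change in stage III (67 called, against 2.75%) and 115 in stage IV (20 called, against 0.268%). The stage II genes were chosen for their change there, so the size in stage II is a description. The median of the higher genes was 0.95, 0.75 and 0.32 in stages II, III and IV, and that of the lower genes -1.35, -0.66 and -0.35. In all 3 stages 10 genes were higher, among them Zfp683, Crybg2, Itgb7, S100a4, Nebl, Socs2 and Slco3a1, and 16 were lower, among them Eomes, Igf2r, Cd55, Mcam, Fcrl6, Khdc1a, Khdc1b, Dpysl5 and Ugt1a7c. Igf2r, for example, was at 41.6, 32.7 and 43.5 CPM in KO and 84.9, 72.4 and 73.7 CPM in WT of stage IV, and Ugt1a7c at 1.18, 2.03 and 2.05 CPM in KO and 9.06, 35.2 and 32.5 CPM in WT.

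**Figure D4:**
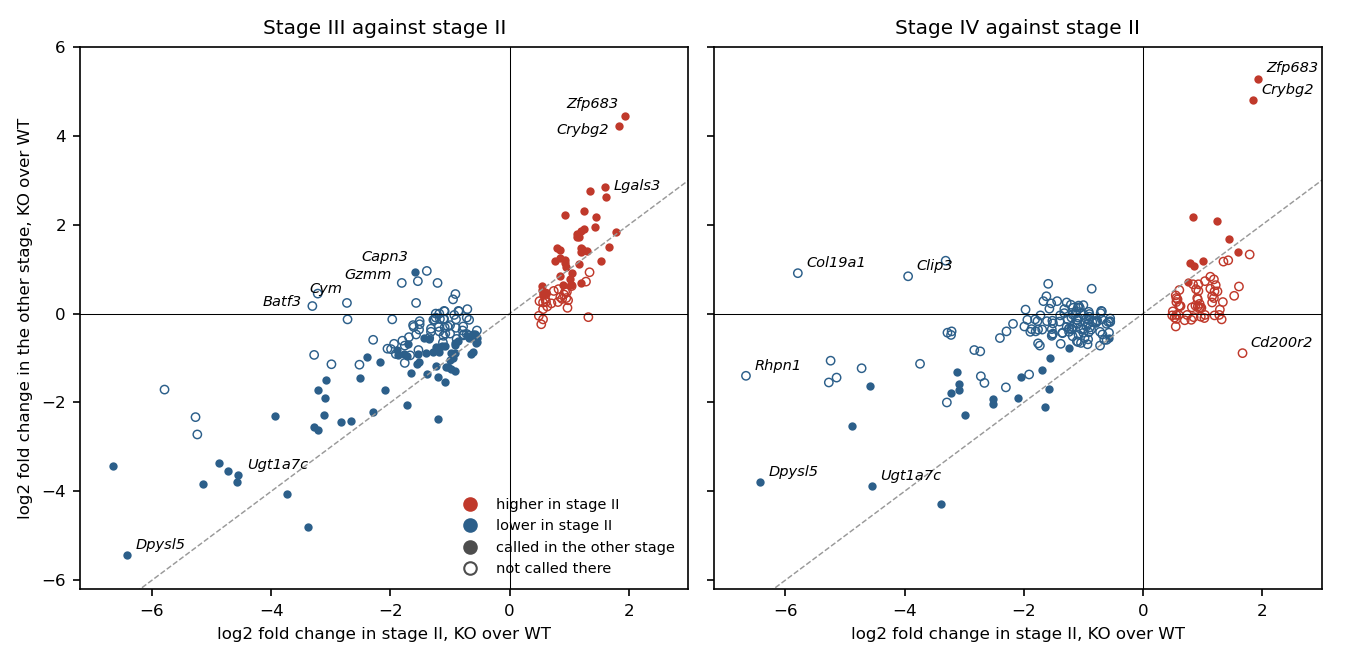
Log2 fold change of KO over WT of the 207 genes called in stage II, with stage II on the x axis and stage III (left) or stage IV (right) on the y axis. Red points were higher and blue points lower in stage II, filled points were called in the other stage as well and open points were not, and the dashed line marks equal change; Zfp683 and Crybg2 lie above it in both panels.

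Whether the effect of the deletion in stage II differed from that in another stage was tested by the interaction. Against stage III 7 genes (0.0494%) differed, 2 with a higher (0.0141%) and 5 with a lower (0.0353%) log2 change in stage II. Of these, Cym, Capn3, Gzmm and Cd3d were also called lower in stage II. Gzmm, lower in KO of stage II, was at 60.5, 40.7 and 55.9 CPM in KO and 29.3, 41.2 and 40.1 CPM in WT of stage III, with overlapping groups. Its log2 change in stage II minus that in stage III was -2.51 ± 0.33 (adjusted p = 0.00716). Cym was at 29.8, 27.5 and 39.7 CPM in KO and 25.1, 30.9 and 38.1 CPM in WT of stage III (difference -2.97 ± 0.33, adjusted p = 0.00135). Capn3, the gene of a calcium-dependent protease, was called lower in KO of stage II and higher in KO of stage III (difference -2.54 ± 0.39, adjusted p = 0.0225). The number of such genes was 2443 without KO stage III replicate 2, 2 without KO stage III replicates 1 and 3 together and 2 to 11 without any other library, whereas Cym and Gzmm were called whichever library was left out.

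Against stage IV 30 genes (0.212%) differed, 7 with a higher (0.0494%) and 23 with a lower (0.162%) log2 change in stage II. With the replicate number as a block 46 genes differed. The transporter gene Slco3a1 and the pair Zfp683 and Crybg2 were higher in KO in both stages, with a larger log2 change in stage IV. There Zfp683 was at 10.4, 8.79 and 5.73 CPM in KO and 0.169, 0.243 and 0.196 CPM in WT (difference -3.37 ± 0.49, adjusted p = 0.00796). The WT stage IV libraries held only 4, 6 and 4 counts of Zfp683, 20, 11 and 10 of Crybg2 and 20, 29 and 21 of Slco3a1. The size of these differences thus rests on low WT counts. In KO of stage II, Zfp683 was at 26.6 to 38.5 CPM, above its level in KO of stage IV. Ccr2 was lower in KO of stage II, whereas in stage IV it was at 421, 361 and 363 CPM in KO and 321, 344 and 361 CPM in WT (difference -1.19 ± 0.16, adjusted p = 0.00565). Cd200r2 was higher in KO of stage II and at 0.428, 0.676 and 0.737 CPM in KO and 0.847, 1.26 and 1.32 CPM in WT of stage IV (difference 2.56 ± 0.44, adjusted p = 0.0216). S1pr5 and Gzma were singled out after their values were seen, because their RNA increases with maturation. S1pr5 was at 374, 297 and 330 CPM in KO and 299, 273 and 237 CPM in WT of stage IV (difference -1.72 ± 0.19, adjusted p = 0.00117), and Gzma at 19200, 14400 and 15200 CPM in KO and 17000, 14600 and 13700 CPM in WT (difference -2.06 ± 0.34, adjusted p = 0.0193). The count was 2 to 66 when single libraries were left out, lowest without KO stage II replicate 3 and highest without KO stage III replicate 1, and the S1pr5 difference was called each time, whereas that of Gzma was lost in 8 of the 18 fits.

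**Figure D5:**
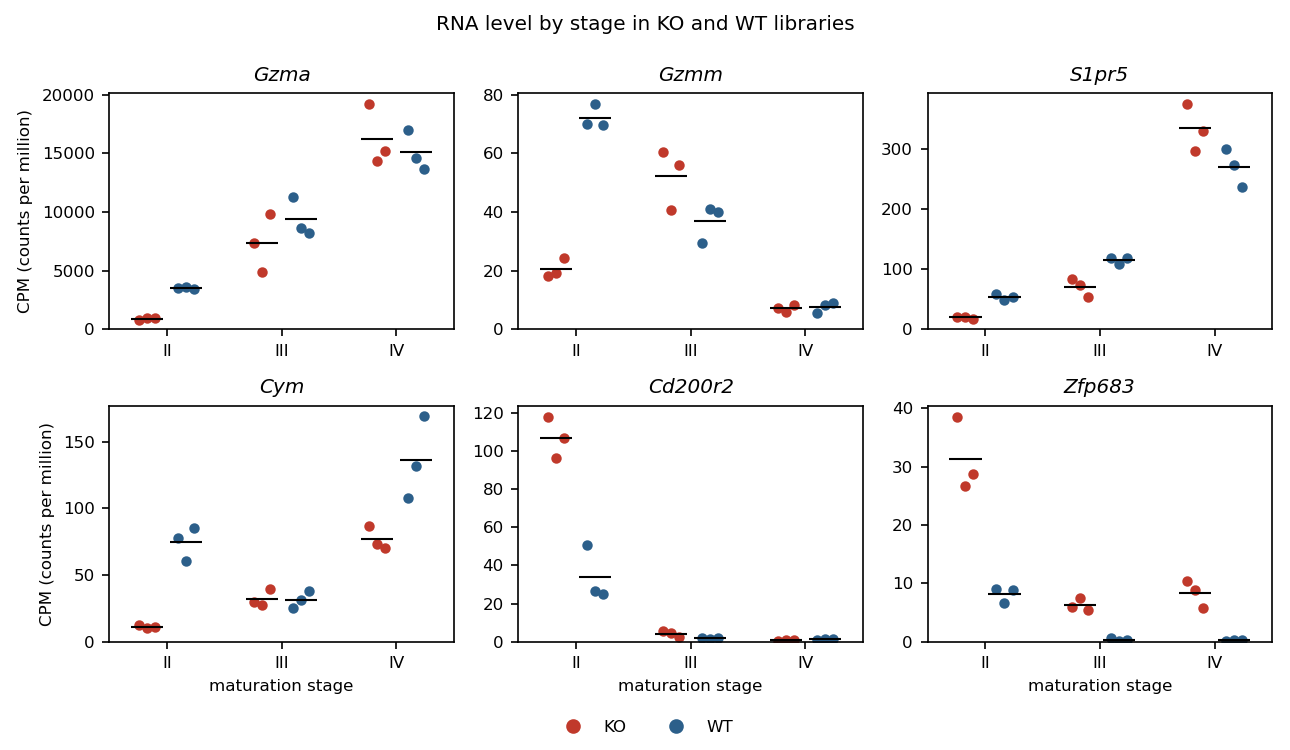
CPM of 6 genes in the libraries of stages II, III and IV, KO in red to the left and WT in blue to the right of each stage, with a line at the mean of 3 libraries. Gzma and S1pr5 are lower in KO than in WT in stage II and overlap with WT in stage IV, Gzmm and Cym are lower in KO of stage II and overlap with WT in stage III, and Cd200r2 is highest in KO of stage II.

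Stage II KO cells were last set against the RNA changes that accompany maturation in WT cells, using the difference between WT stages IV and III, libraries that the stage II contrast does not contain although they share the estimate of the spread. Between those WT stages 449 genes (3.17%) were called, 108 higher (0.763%) and 341 lower (2.41%) in stage IV. Of the 108 genes, 18 were lower and 6 higher in KO of stage II, and of the 341 genes, 22 were lower and 15 higher. The median log2 change in stage II was -0.03 for the 108 genes and -0.05 for the 341 genes, beside -0.01 for all tested genes. The 18 genes include S1pr5, Klrg1, Klra9, Prf1, Cma1, Irf8, Cmklr1, Cym and Mcam, and the 15 include Ikzf2, Tmem176a, Socs2, Asb2, Slco3a1 and Tspan31.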

How the data were processed

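The libraries were made from total RNA of sorted splenic NK cells kept in Trizol, with a standard Illumina preparation, per the labels' protocols. The deposited file of each library gives 41388 genes with a count, a CPM and an RPKM value: the authors' counts are whole reads per gene, and their CPM and RPKM equal the count divided by the library total and, for RPKM, by gene length, per the file headers and the values. STAR 2.0.4 and featureCounts 1.4.5 (Subread) are named in the submitters' processing notes. Genome build, read type and strand setting were stated by no source used here. Positions of 40158 genes overlap GENCODE M21 on GRCm38, which gave symbols for 40254.

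Counts were tested with edgeR 4.0.16 (quasi-likelihood test, filterByExpr, TMM, prior count 0.125) in R 4.3.3, in 1 fit of all 18 libraries with a mean per group. P-values were adjusted by Benjamini-Hochberg over the 14156 genes tested, called at 0.05, and two-sided. Every adjusted p in the text comes from this test unless another tool is named, ± after a log2 value is the SE, and 3 libraries stand behind each group. In data simulated from the stage II means, with 13912 genes tested, 67% of genes changed 2-fold and 90% of those changed 4-fold were recovered, with 6 false calls. Changes were placed only in genes above a minimum level. Each library was drawn independently, without the split of the WT replicates or the pairing by number. These rates therefore cover neither genes with few counts nor the differences among the WT libraries. The labels give 3 separate experiments of pooled spleens. The p-values of the main fit measure the spread among libraries of a group, each library taken as independent of the others.

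Replicates of a group differed beyond counting noise in every pair. Deviations of same-numbered KO and WT stage II libraries from their group means correlated across 8039 genes at 0.573, 0.202 and 0.273, so the numbers were taken to pair samples, although KO replicate 2 correlated more with WT replicate 3 (0.572). The main fit did not use this pairing. The fit with the number as a block was an alternative. Same-numbered WT libraries of stages II, III and IV shared the split in Xist and Ncr1, so the libraries of different stages may not be independent either.

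Genes named are Eomes, Tbx21, the 15 highest and 15 lowest log2 changes among called genes without overlap, every called member of the 38 lists (650 genes), up to 5 uncalled members per list and the 6 highest and lowest genes of each interaction also called in stage II. Not all of the uncalled members are printed, and a few called members are not reported here. Members and lists were chosen with earlier results of these data known. Alternatives were DESeq2 1.42.0, limma 3.58.1 (voom), other filters, scaling and sample sets, and leaving out each library.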

Additional observations from a re-analysis of the deposited data

Results flagged for a closer look

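These results are listed because the effect of the deletion in stage II differed from that in another stage by the interaction test (edgeR, adjusted over 14156 genes), given as the log2 change in stage II minus that in the other stage. Against stage III 7 genes differed. Among those also called in stage II were Cym (-2.97, adjusted p = 0.00135), Gzmm (-2.51, 0.00716), Cd3d (-2.27, 0.0143) and Capn3 (-2.54, 0.0225). Cym and Gzmm were called on leaving out any 1 of the 18 libraries, whereas Cd3d was lost in 3 and Capn3 in 7 of these fits.

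Against stage IV 30 genes differed. Among the genes lower in KO of stage II, the differences were -6.70 for Col19a1 (adjusted p = 0.0201), -5.26 for Rhpn1 (0.0201), -4.79 for Clip3 (0.0109), -2.97 for Khdc1b (0.0439), -1.39 for Phactr3 (0.0461), -1.19 for Ccr2 (0.00565) and -1.19 for Ncald (0.0131). Col19a1 and Rhpn1 had nearly no counts in KO of stage II, so their size depends on the prior count. Genes higher in KO of stage II and with a larger log2 change in stage IV were Zfp683 (-3.37, 0.00796), Crybg2 (-2.97, 0.0131) and Slco3a1 (-1.33, 0.025). For these genes no WT stage IV library held more than 6, 20 and 29 counts, so the size of the differences is uncertain. Cd200r2 (2.56, 0.0216) and Susd3 (1.45, 0.0439) were higher in KO of stage II and had negative log2 changes in stage IV, of -0.89 and -0.13, that did not pass the test. Leaving out single libraries ended the Ccr2 call in 1 of 18 fits, Zfp683 in 2, Clip3 and Crybg2 in 3 each, Ncald in 6, Rhpn1 in 7, Cd200r2 in 8, Col19a1 in 9, Susd3 in 10, Slco3a1 in 13, and Khdc1b and Phactr3 in 15 each. With the Xist term Khdc1b had an adjusted p of 0.0516.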

How the results depend on the processing

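Eomes was called lower in every alternative. Of the 207 genes called, 85 (21 higher, 64 lower) were called in every alternative chosen in advance, 33 also against WT replicate 1 alone, which was added after seeing the data, and none changed sign. The stage II count was 368 with DESeq2, 623 without a filter on low counts, 1061 with limma voom, 345 from the stage II libraries alone, 610 from these with the replicate block, 435 from stages II and IV, 463 without KO stage III replicates 1 and 3, 127 with the Xist term and 34 against WT replicate 1 alone. With the replicate block on all libraries it was 260, of which 203 were among the 207, and among the genes named in stage II it changed no call other than those of Gzmb, Klra13-ps, Tigit, Itgam and Tnfsf8, which passed. Leaving out single libraries gave 105 to 325.

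The count of genes that differed from stage III was 12 at a CPM of 1 or more, 115 with DESeq2, 290 without a filter, 14 with the Xist term, 39 with voom, 2 without KO stage III replicates 1 and 3, 1 against WT replicate 1 alone, and 2 to 2443 when single libraries were left out. That from stage IV was 134 with DESeq2, 1671 without a filter, 46 with the replicate block, 113 from stages II and IV, 274 with voom, 123 without KO stage III replicates 1 and 3, 0 against WT replicate 1 alone, and 2 to 66 when single libraries were left out. The causes were not tested. Uncalled genes changed sign: with the Xist term Tbx21 was at -0.0, Ncr1 at 0.08 and Cd27 at 0.02, against WT replicate 1 alone Nkg7 was at 0.03, Ncr1 at 0.16, Cd27 at 0.12 and Mki67 at 0.67, and without single libraries Tbx21 ran from -0.20 to 0.31.

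Pooled spleens, 3 libraries a group, WT pools unlike each other in Xist and Ncr1, and WT mice whose Cre and tamoxifen status is not given limit these results. Depth limits the genes with 3 or fewer counts in KO to wide intervals.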
